A study of Mus musculus with 2 samples.

Results

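The genes described here make and use microRNAs. They are Drosha and Dgcr8 of the nuclear step, Dicer1, Tarbp2 and Prkra of the cytoplasmic step, the Argonaute genes Ago1, Ago2 and Ago3, and the let-7 regulators Lin28a and Trim71. They were chosen by name, and all 10 were found among the 15127 protein-coding genes of the count table. RNA came from a single line of female mouse embryonic stem cells, pSM44, made from a 129 and castaneous F1 cross, with a tetracycline-inducible promoter in front of the 129 copy of Xist. Both poly(A) RNA libraries formed 1 group, grown in serum-free 2i/LIF medium and given doxycycline at 2 μg/mL for 24 h. No untreated cells were analysed here, so no value is a response to doxycycline. The counts were 1 column with a total of 10017978, and the sources used here do not give whether it pools the 2 libraries, nor whether these came from separate cultures. Each gene therefore has 1 value and no replicate error, and every interval below covers counting error only. No molecular identifiers were described, so copies of the same molecule may be counted repeatedly and the intervals may be too narrow.

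A microRNA gene is first transcribed into a long RNA with a hairpin. In the nucleus Drosha, an RNase III enzyme, cuts out the hairpin together with Dgcr8, which holds the double-stranded RNA. After export, Dicer1 removes the loop with help from the double-stranded RNA-binding proteins Tarbp2 and Prkra, and an Argonaute protein takes up a strand and uses it to find target messages. Lin28a binds the hairpin loop of let-7 precursors and stops their maturation. Trim71 is an RNA-binding ubiquitin ligase of early embryos whose message is a classic let-7 target. Mouse embryonic stem cells are known for microRNAs of the miR-290 and miR-302 clusters, and let-7 is known to rise when such cells differentiate. MicroRNAs themselves are not in the table, so the sequences below describe what these proteins act on and not a measurement.

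The mature sequences are shown because 3 seeds link these genes to the microRNAs that target them or depend on them. Seeds, bases 2 to 8 from the 5′ end, are in capitals, and the sequences are RefSeq's on GRCm38.p6. All 9 let-7 and miR-98 forms looked up shared GAGGUAG. The miR-125 pair shared CCCUGAG, and 5 microRNAs of the miR-290 and miR-302 clusters shared AAGUGCU.
let-7a-5p (chr13:48538239-48538260, minus strand): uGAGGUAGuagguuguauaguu
let-7g-5p (chr9:106178846-106178867, plus strand): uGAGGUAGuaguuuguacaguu
miR-98-5p (chrX:151913229-151913250, plus strand): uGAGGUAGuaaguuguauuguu
miR-125b-5p (chr9:41581940-41581961, plus strand): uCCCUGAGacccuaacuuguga
miR-294-3p (chr7:3220691-3220712, plus strand): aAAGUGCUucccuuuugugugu
miR-302b-3p (chr3:127545275-127545297, plus strand): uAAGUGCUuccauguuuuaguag

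Lin28a is known to read the letters GGAG near the end of the let-7 loop, so let-7 hairpins with and without them are shown, from RefSeq on GRCm38.p6. GGAG between the 5′ and 3′ arms, on the RNA strand, is in capitals. It was found in 9 of 12 let-7 family hairpins, or 75.0%, and in 53 of all 645 hairpins with both arms placed, or 8.22%. Arms were placed by annotation, but for let-7 family hairpins alone a missing 5′ arm was filled in from the family's sequences. The 645 hairpins include the let-7 family and were not matched for loop length. The hairpins of let-7b, let-7c-2 and miR-98 held no match. A match is a description of the letters and not a measured binding site.
let-7g (chr9:106178840-106178927, plus strand): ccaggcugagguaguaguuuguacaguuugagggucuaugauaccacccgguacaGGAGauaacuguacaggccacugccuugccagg
let-7i (chr10:122985640-122985724, minus strand): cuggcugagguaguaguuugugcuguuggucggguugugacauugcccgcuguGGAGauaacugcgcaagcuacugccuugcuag
let-7d (chr13:48536012-48536114, minus strand): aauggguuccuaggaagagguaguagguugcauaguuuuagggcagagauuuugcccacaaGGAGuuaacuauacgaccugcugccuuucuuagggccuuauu
let-7b (chr15:85707319-85707403, plus strand): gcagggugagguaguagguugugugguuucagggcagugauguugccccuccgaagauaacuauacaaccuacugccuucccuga
let-7c-2 (chr15:85706603-85706697, plus strand): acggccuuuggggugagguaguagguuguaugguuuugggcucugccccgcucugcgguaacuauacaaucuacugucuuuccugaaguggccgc

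The message of Dgcr8 carries a microRNA hairpin of its own, shown because the enzyme pair is known to cut hairpins in Dgcr8 messages. The miR-1306 hairpin lies wholly in coding sequence of exon 2 of Dgcr8 (transcript Dgcr8-201, GENCODE M21), and its mature arms are in capitals.
miR-1306 hairpin (chr16:18284239-18284317, minus strand, GRCm38.p6): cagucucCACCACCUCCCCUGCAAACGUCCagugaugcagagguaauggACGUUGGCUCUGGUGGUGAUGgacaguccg

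All 10 genes were above the detection minimum of CPM 1 (CPM is the count scaled to a table total of 1000000), which took 11 counts. Of all listed genes 80.1% passed it, and of all annotated protein-coding genes 55.1%. At CPM 10 or more there were 9 of 10, against 58.9% of listed genes, and at CPM 100 or more 3 of 10, against 15.5%. With 10 genes picked by name, these counts describe the set and are not a test. Their median CPM was 63.3, against 18.3 for all listed genes. Because counts grow with length and these genes had a median of 7.91 kb of exon against 4.24 kb for all listed genes, levels are compared between genes per kilobase, by exon length unless another length is named, and CPM is given as each gene's own value. The sources used here do not give whether reads were counted over exons or whole gene spans. The table's rows ran closer to the order of counts divided by gene span than by exonic length (Spearman's rho 0.9999 and 0.920, across 15052 genes). If whole spans were counted, span would be the fitting divisor, so the order of the genes is given by both lengths. Per kilobase of exon the set's median was 10.3 CPM, against 3.80 for all listed genes, and 8 of 10 lay above the latter. In bulk RNA, fewer expressing cells and less RNA per cell cannot be told apart.

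**Figure D1:**
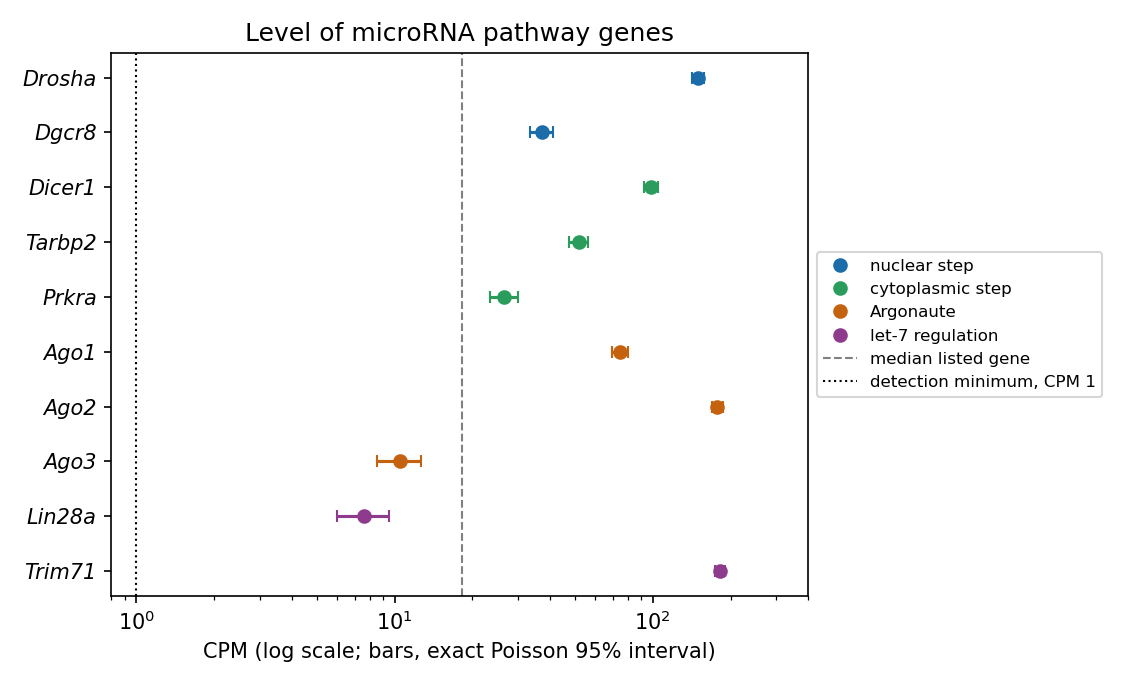
CPM of each gene on a log scale, coloured by role, with exact Poisson 95% intervals as bars; the dashed line is the median of all listed genes and the dotted line the detection minimum. Ago3 at 10.5 CPM and Lin28a at 7.59 CPM have the widest intervals relative to their values.

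The labelled cell type was checked against marker genes. All 6 embryonic stem cell markers on the list lay between 473 CPM (Zfp42) and 901 CPM (Nanog), with a summed level of 3853 CPM. The feeder fibroblast list summed to 18.5 CPM, with Col3a1, Dcn and Lum not listed, and the primitive endoderm list summed to 23.2 CPM. The formative or primed list summed to 15.9 CPM, with Otx2 at 8.38 CPM and Fgf5 at 1 count. In the neuroectoderm list Nes had 66.1 CPM and Pax6 6.19 CPM. Sox1, Neurod1 and Tubb3 were not listed, and each lies wholly under another annotated gene. In the table as a whole, 604 annotated genes have exons wholly under the span of an opposite-strand gene and at most 10% under its exons. Of these 5.96% were listed, against 66.8% of 14067 genes with no exonic base under another gene.

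In the nuclear step, Dgcr8 was among the lower of the 10 genes per kilobase of exon and its partner Drosha was the highest. By gene span both were low, at 1.05 CPM per kilobase for Dgcr8 and 1.36 for Drosha, which were at ranks 8 and 7 of 10. Dgcr8 (chromosome 16, 18253948 to 18289246, minus strand, GRCm38) had 372 counts, or 37.1 CPM (exact Poisson 95% interval 33.5 to 41.1). Drosha (chromosome 15, 12824815 to 12935291, plus strand) had 1501 counts, or 150 CPM (142 to 158). Per kilobase of exon, the level was 4.83 CPM for Dgcr8 and 25.2 CPM for Drosha. That is a ratio of 0.191 (exact binomial 95% interval 0.170 to 0.214). The ratio was 0.262 per kilobase of the longest coding transcript and 0.776 per kilobase of gene span.

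Dgcr8 was also the gene with the most exonic overlap. Of its exonic bases 31.3% lay under the protein-coding genes Gm49776 and Trmt2a or microRNA genes, and neither of those protein-coding genes was listed. All of these bases lay under a gene on the same strand as Dgcr8, whereas Trmt2a is on the other strand. With each gene's whole count divided by its overlap-free exonic bases, Dgcr8 stood at 7.03 CPM per kilobase and Drosha at 25.6. That is a ratio of 0.275 (0.245 to 0.308). Reads were not counted anew over those bases, so these values are too high if reads in the overlap were kept. The part of the overlap in the low count of Dgcr8 was not tested further.

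Genes that work beside this enzyme pair were all present. All 10 Microprocessor partners passed CPM 1, against 80.1% of listed genes, and 8 passed CPM 100, against 15.5%. Their median level was 43.5 CPM per kilobase of exon. The highest per kilobase was Hnrnpa1, an RNA-binding protein known to bind some microRNA precursors, at 273 CPM per kilobase of exon. The lowest was Mettl3, the methyltransferase that marks primary microRNAs and other RNAs, at 3.46 CPM per kilobase. By gene span Ncbp1 was the lowest, at 1.23 CPM per kilobase against 1.71 for Mettl3. Of their exonic bases, 68.8% for Ncbp1 and 18.4% for Mettl3 lay under another gene. The helicase genes Ddx5 and Ddx17, which accompany Drosha, had 112 and 43.6 CPM per kilobase of exon. For export to the cytoplasm, the carrier gene Xpo5 had 25.1 CPM per kilobase of exon, and Ran, the GTPase that drives it and most other nuclear transport, had 524.

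In the cytoplasmic step, the message of Dicer1 was lower per kilobase of exon than those of both its cofactors. Dicer1 (chromosome 12, 104687742 to 104751952, minus strand) had 983 counts, or 98.1 CPM (92.1 to 104). Its exons summed to 16.8 kb, so its level per kilobase was 5.86 CPM (5.50 to 6.24). Set against the nuclear enzyme, Dicer1 stood at 0.232 of Drosha per kilobase of exon (0.214 to 0.252). This direction turned per kilobase of gene span, at 1.13 (1.04 to 1.22). Dicer1 spans 64.2 kb and Drosha 110 kb. By gene span Dicer1 and Prkra had 1.53 and 1.47 CPM per kilobase with overlapping intervals, so their order is not resolved on that scale.

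The order of the cofactors Tarbp2 and Prkra depended on the length used. Tarbp2 (chromosome 15, 102518192 to 102523676, plus strand) had 517 counts, or 51.6 CPM (47.3 to 56.3). Prkra (chromosome 2, 76629898 to 76648015, minus strand) had 266 counts, or 26.6 CPM (23.5 to 29.9). Per kilobase of exon, the level was 11.3 CPM for Tarbp2 and 13.1 CPM for Prkra, a ratio of 0.866 whose interval, 0.746 to 1.01, included equality. Tarbp2 has 14 annotated transcripts, whose merged exons cover 4.55 kb of a 5.49 kb gene, whereas its longest coding transcript is 1.52 kb. By that shorter length it had the highest level of the 10 genes, 33.9 CPM per kilobase with an interval that overlapped that of Drosha, and the ratio to Prkra was 2.06 (1.77 to 2.40). By gene span that ratio was 6.42 (5.53 to 7.47), and Tarbp2 again had the highest level of the 10 genes, 9.41 CPM per kilobase. Other genes for double-stranded RNA enzymes lay below both cofactors by exon length. Eif2ak2, the kinase PKR that Prkra activates and Tarbp2 restrains, had 6.64 CPM per kilobase of exon. The editing enzyme genes Adar and Adarb1 had 5.37 and 2.52 CPM per kilobase, and 40.6% of the exonic bases of Adar lay under another gene.

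**Figure D2:**
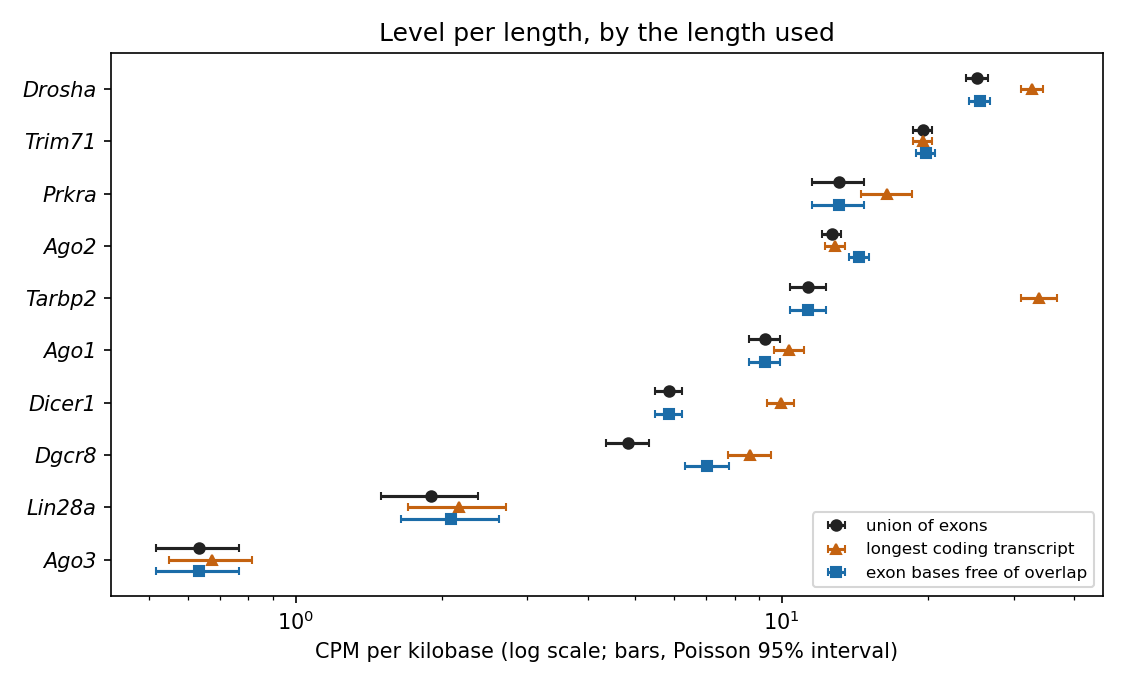
CPM per kilobase on a log scale for each gene, by 3 lengths, with Poisson 95% intervals as bars; genes run from the highest at the top to the lowest by union of exons. Tarbp2 moves most, between 11.3 and 33.9 CPM per kilobase, whereas Lin28a and Ago3 stay at the foot by each length.

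Among the Argonaute genes, Ago1 and Ago2 held most of the summed level per kilobase of exon, and Ago3 and Ago4 were low. Argonaute proteins hold the microRNA, and Ago2 is the mammalian family member known for cutting perfectly paired targets. Ago1 (chromosome 4, 126435012 to 126468583, minus strand) had 751 counts, or 75.0 CPM (69.7 to 80.5). Ago2 (chromosome 15, 73095844 to 73184935, minus strand) had 1781 counts, or 178 CPM (170 to 186). Ago3 (chromosome 4, 126331704 to 126429556, minus strand) had 105 counts, or 10.5 CPM (8.57 to 12.7). The remaining member of the family, Ago4, which is not among the 10 genes, had 42 counts, or 4.19 CPM (3.02 to 5.67).

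Per kilobase of exon, Ago1 held 39.9% of the summed level of the family, Ago2 54.8%, Ago3 2.73% and Ago4 2.61%. The level of Ago1 was 0.729 of that of Ago2 (0.668 to 0.794). By gene span the order of these genes turned, with a ratio of 1.12 (1.03 to 1.22). Ago3 stood at 0.0499 of Ago2 (0.0406 to 0.0608) and Ago4 at 0.0476 (0.0342 to 0.0646), and these ratios stayed between 0.0418 and 0.0537 by each of 4 lengths. Ago1, Ago3 and Ago4 lie side by side on chromosome 4 on the same strand, with unequal levels per kilobase of exon, 9.23 CPM per kilobase for Ago1 against 0.633 for Ago3 and 0.603 for Ago4. Of the exonic bases of Ago2, 12.2% lay under Chrac1 on the other strand, which had 243 counts. The whole count of Ago2 divided by its remaining exonic bases gave 14.4 CPM per kilobase.

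Proteins that work with Argonaute were measured as a list of 8 genes, all of them at CPM 1 or more. Mov10, an RNA helicase found with Argonaute proteins and known for restraining retroelements, was the highest at 166 CPM per kilobase of exon, and Ago4 was the lowest. The scaffold genes Tnrc6a, Tnrc6b and Tnrc6c, whose proteins join Argonaute to the deadenylases, had 5.62, 1.30 and 3.14 CPM per kilobase of exon. Downstream, 18 of 20 deadenylation and decapping genes were at CPM 1 or more, against 55.1% of annotated protein-coding genes. The highest was Cnot1, the scaffold of the deadenylase complex, at 40.6 CPM per kilobase of exon. The lowest listed was the deadenylase gene Cnot7 at 0.755 CPM per kilobase, with most of its exonic bases under another gene. Both ends of this list changed by gene span. There Edc4 was the highest, at 12.3 CPM per kilobase against 7.92 for Cnot1. Dcp1b was the lowest listed, at 0.123 against 0.188 for Cnot7. Cnot9 and Eif4enif1 were not listed, and both lie wholly under other genes. The PIWI genes, the germline branch of the Argonaute superfamily, had 1.47 CPM per kilobase of exon for Piwil2, 0.733 for Piwil1 and 0.315 for Piwil4.

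**Figure D3:**
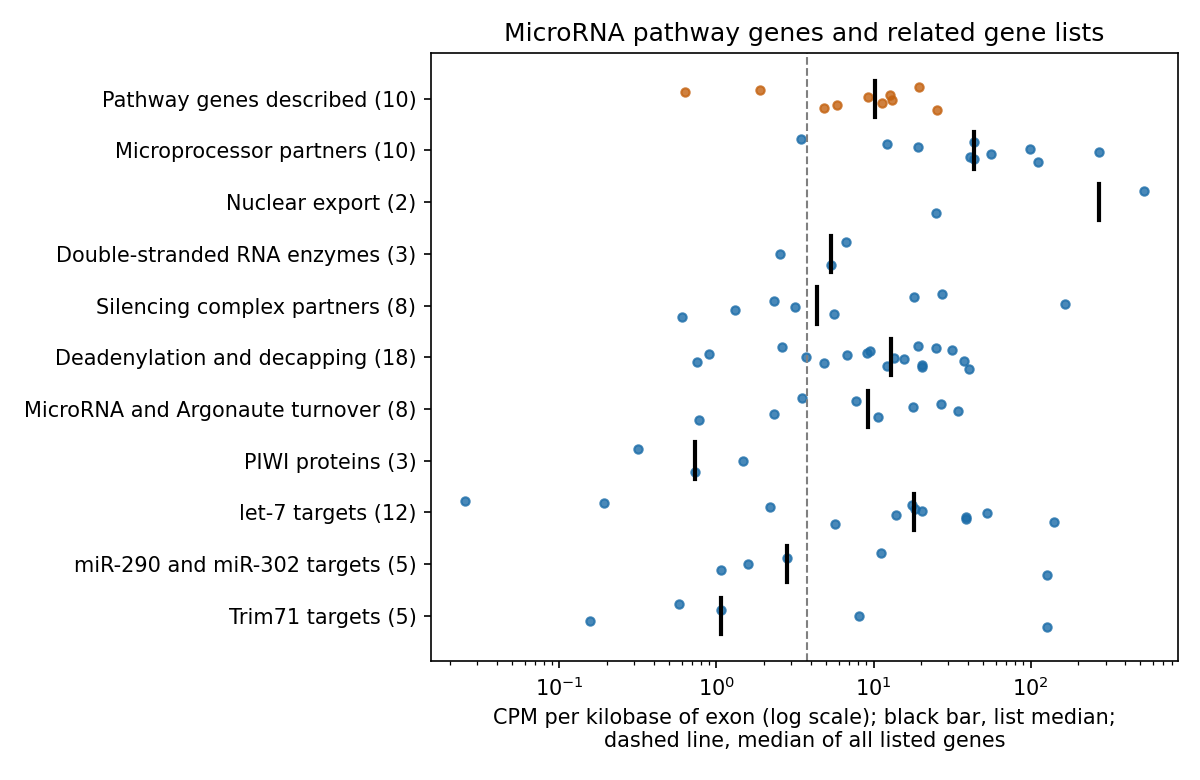
CPM per kilobase of exon of each listed gene on a log scale for the 10 genes and for 10 related lists, with the number of listed genes in brackets; black bars are list medians and the dashed line is the median of all listed genes. The Microprocessor partners centre at 43.5 CPM per kilobase and the PIWI genes at 0.733, on opposite sides of the dashed line at 3.80.

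The let-7 regulators stood near opposite ends of the set, with Lin28a low and Trim71 high. Lin28a (chromosome 4, 134003330 to 134018841, minus strand) had 76 counts, or 7.59 CPM (5.98 to 9.50), and 1.90 CPM per kilobase. Trim71 (chromosome 9, 114507133 to 114564369, minus strand) had 1824 counts, or 182 CPM (174 to 191), and 19.5 CPM per kilobase of exon. Per kilobase of exon, Lin28a stood at 0.0973 of Trim71 (0.0763 to 0.122), and by each other length the ratio lay between 0.106 and 0.154. Lin28a was at percentile 38.9 of listed genes per kilobase of exon and Trim71 at percentile 81.1. Of the exonic bases of Lin28a, 9.18% lay under another gene, and of those of Trim71, 1.45%. Lin28b, the paralog of Lin28a that also blocks let-7, had 70 counts, or 0.771 CPM per kilobase of exon, which was 0.406 of Lin28a (0.289 to 0.569).

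Of the enzymes that act on let-7 precursors after Lin28a binding, Tut4 and Dis3l2 were above Lin28a per kilobase of exon, and the counting interval of Tut7 overlapped that of Lin28a. Tut4 and Tut7, which add uridines to the precursor, had 10.7 and 2.34 CPM per kilobase of exon. Dis3l2, the exonuclease that degrades the uridylated precursor, was the highest of the turnover list, at 34.6 CPM per kilobase of exon. Its gene spans 346 kb, so per kilobase of gene span its level was 0.888 CPM. All 8 genes of the turnover list passed CPM 1, against 80.1% of listed genes. The list's median level was 9.27 CPM per kilobase of exon, and Lin28b was the lowest.

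The 3′ untranslated regions of Trim71 and Lin28a hold matches to the let-7 seed, which are shown because these messages are known targets yet differed in level. Matches to CTACCTC, the reverse complement of the let-7 seed, were searched on the message strand of each gene's longest annotated 3′ untranslated region in GENCODE M21. Trim71 held 4 matches in 5512 bases, each followed by A, and Lin28a held 2 in 2775 bases, each followed by A. Of all 21037 such regions, 9.02% held at least 1 match. Among regions within 10% of the same length the share was 29.0% for Trim71 and 13.6% for Lin28a. Both Lin28a matches and 3 of those of Trim71 are shown in windows of 30 bases, with the match in capitals (GRCm38, minus strand, positions counted from the start of the untranslated region).
Trim71 site at base 166 (chr9:114512462-114512491): attgcctaagtcCTACCTCagcttaaattt
Trim71 site at base 262 (chr9:114512366-114512395): gataatttctatCTACCTCaactctttgca
Trim71 site at base 3591 (chr9:114509037-114509066): agtatggattttCTACCTCaattttggcaa
Lin28a site at base 909 (chr4:134005179-134005208): cagcctgttgaaCTACCTCatttttgccga
Lin28a site at base 1547 (chr4:134004541-134004570): atcgccacaaacCTACCTCactgtgttgaa

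Both messages also held a single match to CTCAGGG, the reverse complement of the miR-125 seed, again followed by A. Of all the regions 13.1% held this match. It was 39.7% among regions of the length of Trim71 and 24.7% among those of the length of Lin28a.
Trim71 site at base 79 (chr9:114512549-114512578): agaagaaatcgtCTCAGGGatatttctttt
Lin28a site at base 797 (chr4:134005291-134005320): tacatgagcaatCTCAGGGataataagtcc

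Matches in the other genes were fewer or in longer regions. For the miR-125 letters, Ago2 held 2 matches and Dicer1 held 1, none of them followed by A. Ago2 held 3 let-7 matches in 11064 bases, 1 of them followed by A, and among 35 regions of like length 48.6% held a match. Ago3 and Tarbp2 held 1 let-7 match each, and Drosha, Dgcr8, Dicer1, Prkra and Ago1 held none. The share of like-length regions with a let-7 match was 52.6% for Ago3 and 2.46% for the 334 bases of Tarbp2. For AGCACTT, which pairs with the seed that miR-294 and miR-302b share, Ago3 held 3 matches in 12742 bases and Trim71 held 1, and the other 8 genes held none. Of 19 regions of the length of Ago3, 89.5% held that match, and of all regions 14.7%. The levels of the genes with and without matches ran through each other. Trim71 with 4 let-7 matches had 19.5 CPM per kilobase of exon, and Drosha with none in 169 bases had 25.2. Per kilobase of gene span this order was reversed, at 3.18 for Trim71 and 1.36 for Drosha. Among regions of the length of Drosha, 0.573% held a let-7 match. Any link between matches and level was not tested.

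Known targets of the pathway spanned a wide range of levels. Of 12 let-7 targets outside the 10 genes, 11 were at CPM 1 or more and 7 at CPM 100 or more. Among all listed genes these shares were 80.1% and 15.5%. Per kilobase of exon the highest was Hmga1, a chromatin protein gene related to Hmga2, at 141 CPM. Igf2bp1, an RNA-binding protein of embryonic and fetal cells and the gene with the most counts on the list, had 38.8 CPM per kilobase. Its relatives Igf2bp2 and Igf2bp3 had 38.7 and 13.9. The lowest was Arid3b with 2 counts, and 96.0% of its exonic bases lay under another gene. Hmga2, the chromatin protein gene whose message is the best known let-7 target, had 5.70 CPM per kilobase of exon. Of 6 targets of the miR-290 and miR-302 clusters, 5 were at CPM 1 or more, against 55.1% of annotated protein-coding genes. The highest was Cdkn1a, the cell cycle inhibitor p21, at 126 CPM per kilobase of exon, the lowest listed was Rbl2 at 1.07, and Lats2, almost wholly under another gene, was not listed. Of 5 genes reported as Trim71 targets, Cdkn1a was again the highest and Egr1 the lowest, with 7 counts. By gene span the lowest of these was Mbnl1, at 0.0693 CPM per kilobase against 0.135 for Egr1. Among the listed miR-290 and miR-302 targets it was then Tgfbr2, at 0.144 against 0.150 for Rbl2. Without cells that lack the microRNA machinery, none of these levels measures repression.

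Across the set, levels per kilobase of exon spanned 39.9-fold, from Ago3 at 0.633 CPM to Drosha at 25.2 CPM. The order was Drosha, Trim71, Prkra, Ago2, Tarbp2, Ago1, Dicer1, Dgcr8, Lin28a and Ago3. The counting intervals of Prkra, Ago2 and Tarbp2 overlapped, so their order is not resolved at this depth. All other neighbours in that order had intervals that did not overlap. By gene span the order was Tarbp2, Trim71, Ago1, Ago2, Dicer1, Prkra, Drosha, Dgcr8, Lin28a and Ago3. There Drosha lost the first rank and took rank 7, and the intervals of Ago1 and Ago2, of Dicer1 and Prkra, and of Prkra and Drosha overlapped. The ratio of Ago1 to Ago2 by gene span still had an interval that left out equality, 1.03 to 1.22. As percentiles of listed genes per kilobase of exon, the set ran from 26.4 for Ago3 to 84.9 for Drosha, with a median of 69.4.

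**Figure D4:**
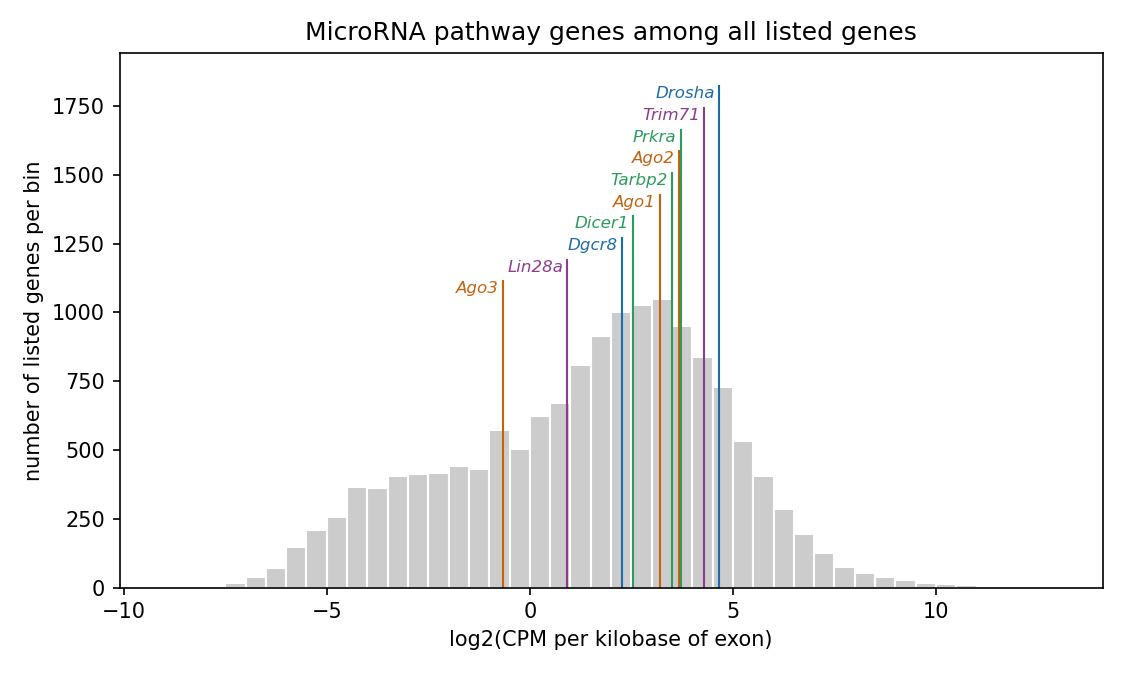
Histogram of all listed genes with an annotated length by log2(CPM per kilobase of exon), in bins 0.5 wide, with a line for each of the 10 genes, coloured as in the plot of CPM by role. Ago3 and Lin28a lie at percentiles 26.4 and 38.9, left of the peak, and Trim71 and Drosha at 81.1 and 84.9, right of it.

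**Figure D5:**
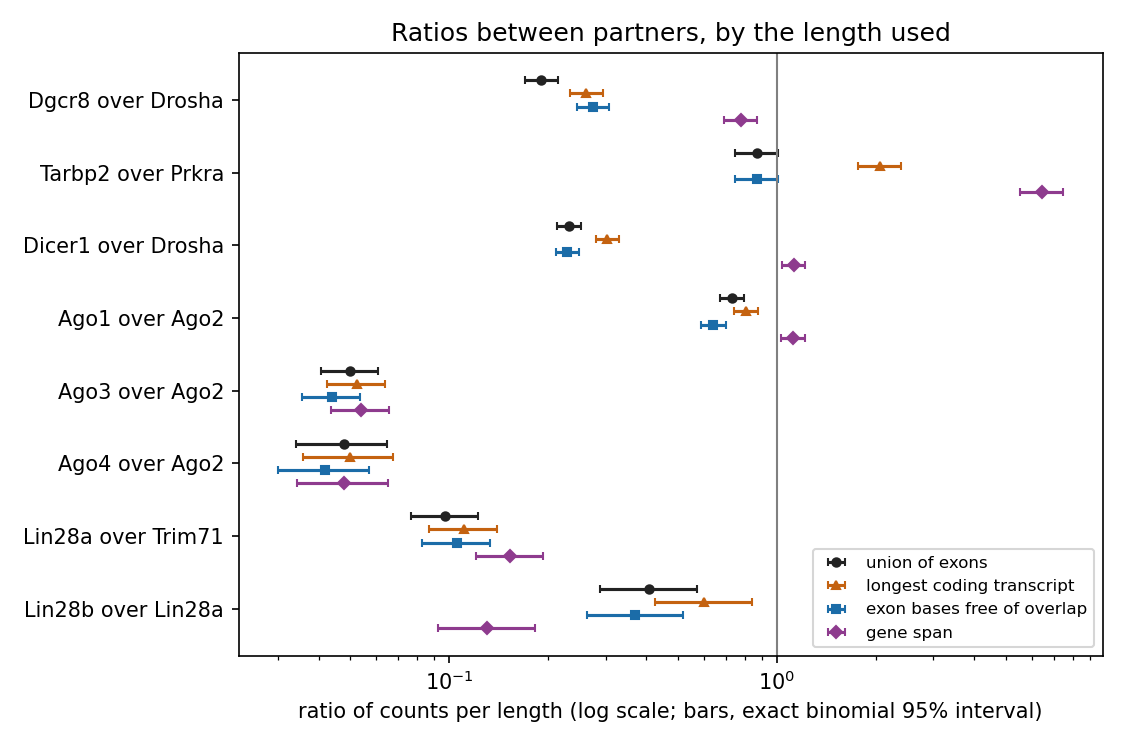
Ratio of counts per length on a log scale for 8 pairs of partners or relatives, by 4 lengths, with exact binomial 95% intervals as bars and a line at equal levels. Dicer1 over Drosha and Ago1 over Ago2 lie left of the line by exon length and right of it by gene span, at 1.13 and 1.12, whereas Ago3, Ago4 and Lin28a stay far left of it.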

How the data were processed

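The authors deposited raw counts by gene symbol, the lowest being 1 count, in a single column for the doxycycline-treated group. The submitters' processing notes name GRCm38.p6 and, with no roles, Trimmomatic 0.38, HISAT2, SAMtools, featureCounts and Subread 1.6.4. No source used here gives the annotation, the strandedness of the counting or the features counted. The order of rows tracked counts divided by gene span (Spearman's rho 0.9999 over 15052 genes) more closely than counts divided by exonic length (0.920), so the order of the 10 genes and the ratios are also given per gene span. If whole spans were counted, exonic length would not be the fitting divisor.

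Counts were scaled to CPM by the total. Gene lengths and positions came from GENCODE M21 on GRCm38 (14896 by symbol, 156 by RefSeq synonym, 75 unmatched). Exonic length is the union of annotated exons, and overlap is the share of exonic bases under another annotated gene. Counts had exact Poisson and ratios exact conditional binomial 95% intervals. There is 1 group and 1 column, so no test between conditions, fit across genes or comparison of libraries was made. The intervals and percentiles were tested on simulated counts.

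The genes and lists were chosen with earlier results of these data known. The naming rule took the 10 genes, Ago4, and, by CPM, the highest, the lowest listed and each unlisted gene of every list. Further list genes, such as Ddx5, Tnrc6a, Tut4, Eif2ak2, Igf2bp2, Hmga1 and Hmga2, were named after their values were seen, and the searches for seed matches and loop letters were added then too. Alternatives were other lengths, minimums, scaling totals, pseudocounts and gene pools. The tools were numpy 2.4.6, pandas 2.3.3, scipy 1.17.1 and matplotlib 3.10.9 in Python 3.11.15.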

Additional observations from a re-analysis of the deposited data

How the results depend on the processing

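All 10 genes and all 52 listed genes of the pathway lists kept CPM 1 or more at a minimum of CPM 0.5, and counts stayed within 1.5 times at CPM 5 and at 10 counts. Scaling without the 20 highest genes or without ribosomal protein genes gave a median CPM of 68.5 or 70.2 in place of 63.3. The highest gene was 39.9-fold above the lowest per kilobase of exon, 50.4-fold by longest coding transcript and 87.8-fold by gene span. By longest coding transcript, the ratios were 0.262 for Dgcr8 over Drosha, 2.06 for Tarbp2 over Prkra, 0.304 for Dicer1 over Drosha, 0.805 for Ago1 over Ago2 and 0.598 for Lin28b over Lin28a. With whole counts divided by overlap-free bases they were 0.275 for Dgcr8 over Drosha and 0.640 for Ago1 over Ago2. By gene span Dicer1 over Drosha and Ago1 over Ago2 changed direction, at 1.13 and 1.12. The others by span were 0.776 (Dgcr8 over Drosha), 6.42 (Tarbp2 over Prkra), 0.154 (Lin28a over Trim71) and 0.130 (Lin28b over Lin28a). The share of Ago1 in its family was 42.2%, 37.1% and 50.4% by longest transcript, overlap-free bases and span, and that of Ago2 was 52.4%, 58.0% and 45.03%. These lengths gave another rank to 5, 4 and 5 of the 10 genes. The median percentile of 69.4 was 61.9 among genes at CPM 1 or more, 79.0 with unlisted annotated genes at 0, 64.2 by longest transcript and 65.0 by span. The pathway lists' median lay 2.09 above that of all listed genes on the log2(CPM + 1) scale, and 4.40 with unlisted genes at 0. Counting error was widest for Lin28a, with a half-width of 23.2% of its value. Leaving out a library was not run, since the table has 1 column. No paired analysis was possible because the column carries no library number and there is 1 group.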
